A study of Mus musculus with 20 samples.

Results

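Glucocorticoids enter adipocytes as active hormone or are made active inside them by the enzyme encoded by Hsd11b1, and they bind a receptor that is held in the cytoplasm by chaperones until hormone is bound. The receptor then moves to the nucleus and turns target genes on or off. One of these targets, Fkbp5, encodes a chaperone that lowers the receptor's affinity for hormone, so that the pathway restrains itself, and in fat the pathway is known for its part in adipocyte differentiation, lipolysis and insulin resistance. The 9 genes described here are the glucocorticoid receptor gene Nr3c1 and the mineralocorticoid receptor gene Nr3c2, Hsd11b1, and the hormone-responsive genes Fkbp5, Tsc22d3, Zbtb16, Sgk1, Mt1 and Mt2. They were chosen by symbol, each symbol matched 1 row of the 46078 genes counted, and 9 of 9 were among the 21464 genes that were tested.

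The question was how the ribosome-bound mRNA of these genes in adipocytes differs in obesity and after weight loss (WL). TRAP–seq was run on epididymal adipose tissue (epiAT) of 20 AdipoERCre x NuTRAP mice, labelled as on a C576BL6 background, in which tamoxifen-induced Cre, driven by an adipocyte promoter, switches on a GFP-tagged ribosomal protein and a tag on the nuclei. All mice of all groups received tamoxifen before the diets began. In the short arm, C mice (n = 3) ate chow and were 18 weeks old, H mice (n = 3) ate a high-fat diet (HFD) for 12 weeks and were 18 weeks old, CC_s mice (n = 3) ate chow and were 26 weeks old, and HC mice (n = 3) had 12 weeks of HFD and then 8 weeks of chow and were 26 weeks old. In the long arm, CC_l mice (n = 2) ate chow and HH mice (n = 2) ate HFD for 25 weeks, at 31 weeks of age, whereas CCC mice (n = 2) ate chow and HHC mice (n = 2) had 25 weeks of HFD and 8 weeks of chow, at 39 weeks of age. Per the paper, the chow set beside the HFD was a low-fat chow diet. In the WL period, WL mice and their controls ate a standard chow diet. Sample labels carry a different prefix in each arm. Every log2 fold change and test below rests on HFD or WL mice against chow mice of the same arm and age. Values set side by side across ages were not tested.

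Libraries held 10710277 to 36738954 counts on genes, so that a limit of 3 counts stood at 0.0815 to 0.251 CPM, and the lowest count of any of the 9 genes in a library was 28 (Nr3c2). CPM are counts scaled to the library total after TMM normalization. The adipocyte list (Adipoq, Plin1, Lep, Pparg, Cidec, Fabp4, Lipe and Retn) summed to between 12263 and 130641 CPM and its 8 genes were found in every group. Lists of other cell types were found too, since the pull-down enriches adipocyte mRNA without removing all other mRNA. There were 5 libraries that stood apart from the rest. C replicates 1 and 2, HC replicate 3 and CCC replicate 2 held 20337 to 37510 CPM of nuclear-retained RNA (Malat1, Neat1 and Kcnq1ot1), against at most 12392 CPM elsewhere, with an adipocyte sum of 12263 to 22381 CPM. C replicate 1 and CC_l replicate 1 held 1902 and 3114 CPM of epididymis and spermatid genes, against at most 435 CPM elsewhere. Leaving out these 5 libraries leaves 1 mouse each in C, CC_l and CCC, and each value given without them assumes that this mouse varies as the mice of other groups do.

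To be called changed, a gene needed a log2 fold change of 1 or more in size and, by the quasi-likelihood test of edgeR, a nominal p under 0.01. In H against C, 1 of the 9 genes was called (Fkbp5, lower), where 6.49% of all tested genes were called, and 1 had an adjusted p under 0.05, where 2.12% did. In HH against CC_l, 3 were called (Fkbp5 and Zbtb16 lower, Sgk1 higher), where 6.79% of all tested genes were called, 4.92% higher and 1.88% lower. Of these 3, 1 (Fkbp5) had an adjusted p under 0.05, where 2.07% of all tested genes did (1.75% of all tested genes higher and 0.326% lower). After WL none of the 9 was called. The count in HC against CC_s was 0, beside 1.74% of all tested genes, 1.57% higher and 0.172% lower, and 1 of the 9 (Fkbp5) had a nominal p under 0.05, where 8.69% of all genes did. The count in HHC against CCC was 0, beside 3.12% of all tested genes, 0.447% higher and 2.67% lower, and 0 of the 9 had a nominal p under 0.05, where 10.7% of all genes did. The median log2 fold change of the 9 genes was -0.30 in H, -0.46 in HC, -0.51 in HH and 0.07 in HHC, beside medians over all tested genes of -0.15, 0.27, -0.23 and -0.06. With groups of 2 or 3 mice, a gene that was not called is not shown to be unchanged, so the 95% interval of the log2 fold change is given where it matters.

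**Figure D1:**
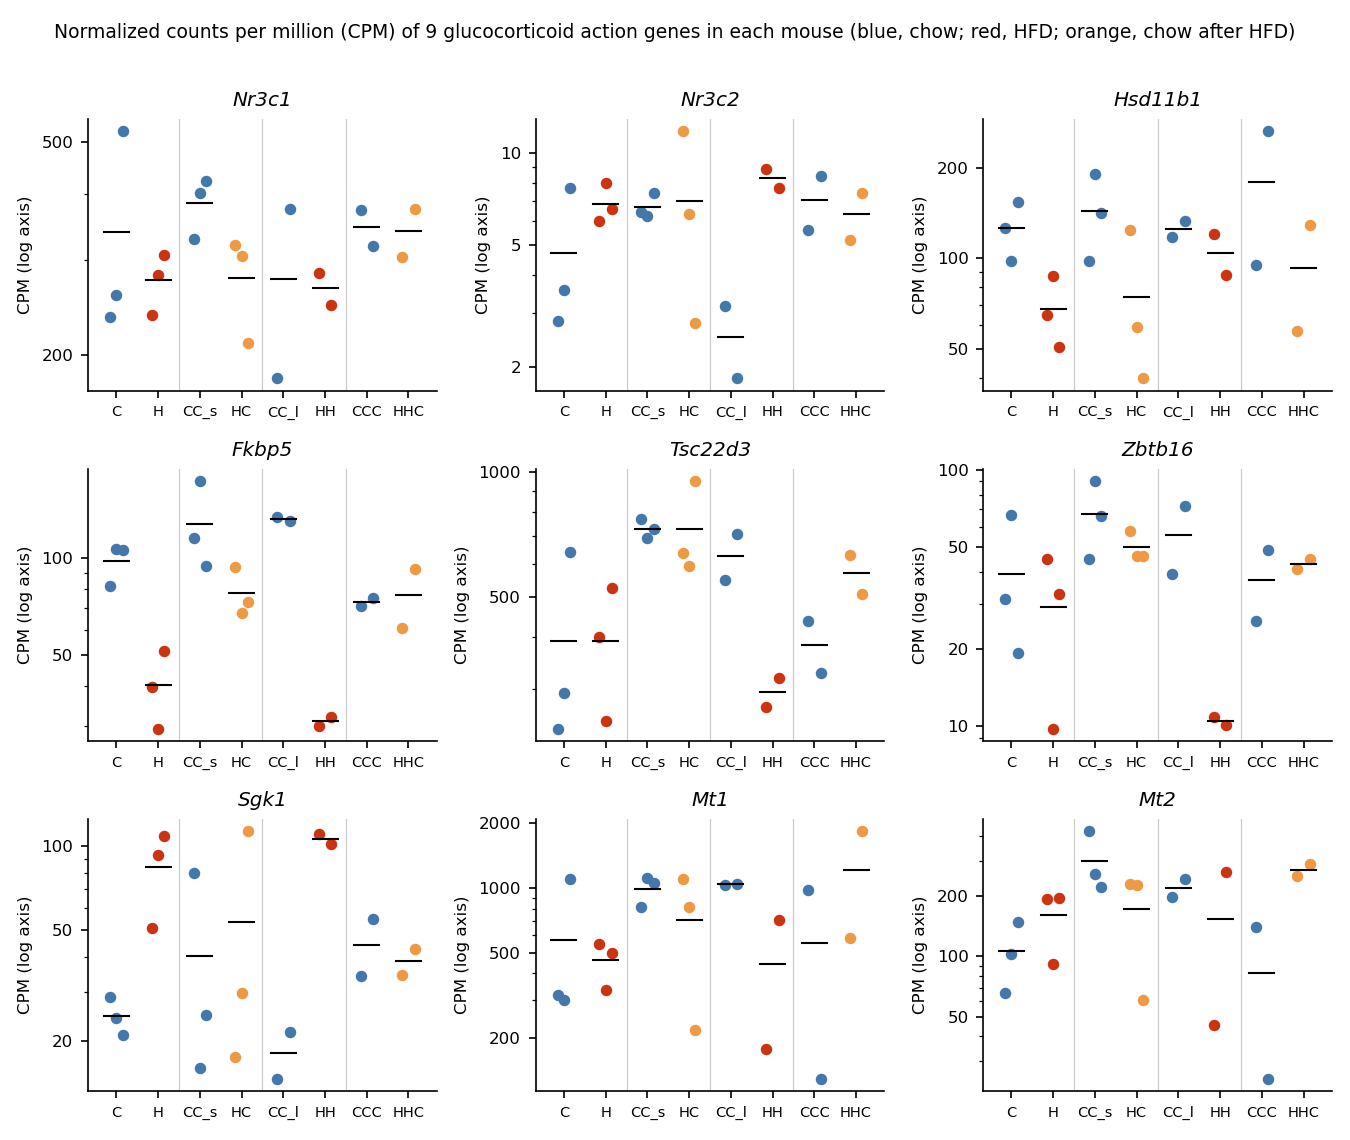
CPM (log axis) of the 9 genes in each of the 20 mice, by group, with a point for each mouse and a line at the group mean. Fkbp5 lies between 29.5 and 51.5 CPM in the 5 H and HH mice and at 60.8 CPM or more in the other 15 mice.

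Counted per kilobase of exon, so that genes can be compared, the 10 chow-fed mice held most mRNA of the metallothioneins, with 631 ± 307 CPM per kb for Mt1 and 310.0 ± 193 for Mt2 (SD, n = 10). Tsc22d3 followed at 124 ± 45.8 CPM per kb, Nr3c1 at 44.5 ± 13.0, Hsd11b1 at 33.5 ± 12.4, Fkbp5 at 11.5 ± 3.32, Zbtb16 at 9.55 ± 4.32 and Sgk1 at 6.53 ± 4.15 (SD, n = 10). The mineralocorticoid receptor gene Nr3c2 was the lowest at 0.822 ± 0.357 CPM per kb (SD, n = 10), far under the glucocorticoid receptor gene. Neighbours in this order overlapped between mice, except that Hsd11b1 (22.3 to 62.7 CPM per kb) lay above Fkbp5 (7.52 to 18.4) and Sgk1 (3.00 to 16.3) above Nr3c2 (0.283 to 1.31).

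The receptor Nr3c1 (ENSMUSG00000024431, chromosome 18: 39410545-39519421, minus strand, GRCm38) stood at 235, 259 and 523 CPM in C and at 237, 282 and 307 CPM in H. Its values were 329, 401 and 423 CPM in CC_s and 320.2, 305 and 210.3 CPM in HC. The HC mice lay below the CC_s mice without overlap, and the H and C mice overlapped. At the later ages Nr3c1 stood at 181 and 374 CPM in CC_l, 284 and 248 in HH, 373 and 319 in CCC, and 305 and 375 in HHC. The log2 fold changes were -0.30 in H, -0.46 in HC, -0.06 in HH and -0.03 in HHC, none of them called (adjusted p of 0.727 or more). The intervals reached from -1.11 to 0.51 in H and from -1.27 to 0.34 in HC, so that a 2-fold lower level lay inside them. All 7 pairs of neighbouring groups in the order of the Nr3c1 means overlapped.

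Nr3c2 (ENSMUSG00000031618, chromosome 8: 76899442-77245012, plus strand) encodes the mineralocorticoid receptor, which also binds glucocorticoids with high affinity. Its levels were low, at 2.83, 3.57 and 7.70 CPM in C and 6.01, 7.96 and 6.57 CPM in H. In CC_l they were 3.17 and 1.83 CPM and in HH 8.89 and 7.67 CPM, so that the HH mice lay above the CC_l mice. The log2 fold change in HH was 1.72 ± 0.65 (SE), with a nominal p of 0.0171 and an adjusted p of 0.186 in edgeR's test, and it was not called. The HC and CC_s mice overlapped (2.78 to 11.8 CPM and 6.23 to 7.42 CPM), as did the HHC and CCC mice (5.20 to 7.43 and 5.62 to 8.45 CPM). With all mice kept, Nr3c2 was called higher in HH by DESeq2 (log2 fold change of 1.66, adjusted p = 0.0480) and with nuclear-retained RNA as a covariate (1.52, adjusted p = 0.0542 by edgeR). It was also called without the 5 libraries that stand apart (2.25), where the single CC_l mouse left held 28 counts of the gene. The gene overlaps Gm10649 on the opposite strand over 3.82% of its exon bases, and the strand setting of the counting is not given in the sources used here.

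Hsd11b1 (ENSMUSG00000016194, chromosome 1: 193221634-193264075, minus strand) encodes 11β-hydroxysteroid dehydrogenase type 1, the enzyme that turns inactive 11-keto steroid into active hormone. It stood at 126, 97.8 and 155 CPM in C and at 64.8, 87.4 and 50.5 CPM in H, so that every H mouse lay below every C mouse. The CC_s mice held 98.4, 191 and 141 CPM and the HC mice 124, 59.1 and 39.7 CPM. Hsd11b1 stood at 118 and 134 CPM in CC_l, 121 and 88.4 in HH, 94.9 and 267 in CCC, and 57.2 and 129 in HHC. The groups overlapped in each of these 3 comparisons. The log2 fold changes were -0.90 ± 0.47 in H, -0.95 ± 0.47 in HC, -0.26 ± 0.57 in HH and -0.96 ± 0.58 in HHC, with adjusted p of 0.343, 0.579, 0.851 and 0.575 in this order by edgeR's test. All 4 estimates were below 0, and none was called. Without HC replicate 1 the value in HC was -1.54 and was called, and in HHC it was 0.045 without the libraries that stand apart.

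The other genes that supply or clear the steroid were a list of 11, of which 8 were tested. They include H6pd, which supplies the reduced cofactor that the Hsd11b1 enzyme uses, the steroid 5α-reductases, the efflux pumps Abcb1a and Abcc1, and Hsd11b2, which inactivates the hormone. Srd5a3 was called higher in HH, at 46.2 and 39.8 CPM against 16.2 and 22.8 CPM in CC_l (log2 fold change of 1.14, adjusted p = 0.126), and it lay just outside the rule in H, with a log2 fold change of 1.00. The call of Srd5a3 in HH was lost when any 1 of the 4 mice was left out (log2 fold changes of 0.92 to 1.44), without the filter on low counts (1.25), with the replicate block (1.14) and without the 5 libraries that stand apart (1.00). H6pd was at a mean of 110 CPM in H and 158 in C, 153 in HC and 163 in CC_s, 161 in HH and 134 in CC_l, and 118 in HHC and 237 in CCC, with no call. Abcc1 had means of 45.8 CPM in H and 61.1 in C and was not called in any comparison. Srd5a2 was called higher in HC, but it was at 20, 4 and 8 counts there and at 0 counts in all 3 CC_s mice, so that no fold is given. The median of the list was 0.61 in H, 0.26 in HC, 0.34 in HH and -0.66 in HHC. Medians over all tested genes were -0.15, 0.27, -0.23 and -0.06 in this order. With Cyp21a1, at 0 counts in all C mice, taken at its limit of 3 counts, the list median in H was 0.36. The genes of the adrenal enzymes Cyp11b1 and Cyp11b2 and of the carrier Serpina6 did not pass the filter.

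Fkbp5 (ENSMUSG00000024222, chromosome 17: 28399094-28517527, minus strand) had the smallest p of the 9 in H and in HH. This gene encodes FKBP51, the immunophilin that sits on the receptor with HSP90 and lowers its hormone binding, and it is among the best known genes induced by glucocorticoids. It stood at 82.1, 107 and 106 CPM in C and at 39.8, 29.5 and 51.5 CPM in H. At 31 weeks of age it stood at 135 and 131 CPM in CC_l and at 30.1 and 32.1 CPM in HH. The obese mice lay below the lean mice in each arm without overlap, and the difference was larger than the spread between mice. Fkbp5 was 2.44-fold lower in H (log2 fold change of -1.29 ± 0.31, adjusted p = 0.0416) and 4.27-fold lower in HH (log2 fold change of -2.09 ± 0.39, adjusted p = 0.0211) by edgeR's quasi-likelihood test after Benjamini-Hochberg adjustment. Calls of genes that were lower made up 2.92% of the tested genes in H and 1.88% in HH, and 0.839% and 0.326% were lower at an adjusted p under 0.05. Fewer adipocytes with the gene active, less Fkbp5 mRNA per adipocyte and more mRNA of other cell types cannot be told apart in bulk libraries. The adipocyte sum was 25743 to 31857 CPM in HH and 56943 to 62259 CPM in CC_l, and that of H and C overlapped. The part of library make-up in the Fkbp5 values was not tested. The call by nominal p and fold change stood under each alternative setting run for H and HH, at log2 fold changes of -1.50 to -1.11 in H and -2.14 to -1.99 in HH. The adjusted p did not stay under 0.05, and ranged from 5.76e-05 to 0.227 in H and from 4.74e-07 to 0.293 in HH. It was over 0.05 with the replicate block (0.116 in H and 0.0629 in HH), without the 5 libraries that stand apart (0.0749 and 0.0861), and when single mice were left out, except without H replicate 3. In H it was also over 0.05 without the filter on low counts (0.0617) and with only the compared groups (0.0793).

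After WL Fkbp5 was not called in either arm. The HC mice held 93.9, 67.6 and 73.2 CPM, below the CC_s mice at 116, 174 and 94.95 CPM without overlap. This difference of -0.71 ± 0.31 on the log2 scale had a nominal p of 0.0333 and an adjusted p of 0.558 in edgeR's test, its interval reached from -1.36 to -0.06, and it was not called. The HHC mice held 60.8 and 92.6 CPM and the CCC mice 71.2 and 75.1 CPM, and the groups overlapped, with a log2 fold change of 0.07 ± 0.38 and an interval from -0.72 to 0.86. The HHC and HC effects were not shown to differ (difference of 0.78 ± 0.49, adjusted p = 0.524 in edgeR's test). The HC mice lay above every H mouse and the HHC mice above every HH mouse, but these groups also differ in age and were not compared with a test. The chow groups of the long arm differed from each other as well, with 131 to 135 CPM in CC_l and 71.2 to 75.1 CPM in CCC, so the HHC values also lay below those of the 31-week-old chow mice. In the order of the means, CC_l (133 CPM), CC_s (128), C (98.3), HC (78.2), HHC (76.7), CCC (73.2), H (40.3) and HH (31.1), the step from CCC to H was the single one at which neighbouring groups did not overlap.

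**Figure D2:**
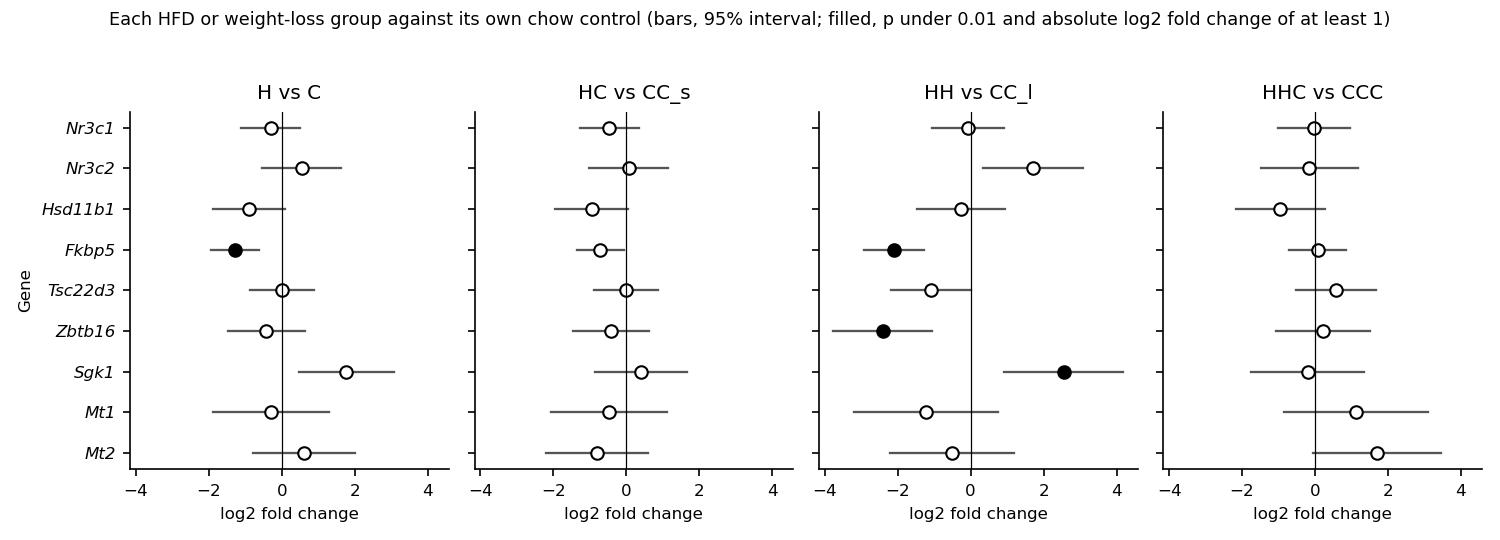
log2 fold change of the 9 genes in each HFD or WL group against its own chow control, with 95% intervals as bars and filled points for called genes. The filled points are Fkbp5 in H (-1.29) and HH (-2.09) and, in HH, Zbtb16 (-2.41) and Sgk1 (2.55).

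Of the 9 other chaperones and cochaperones of the receptor, all tested, 0 were called in any of the 4 comparisons. Without the 5 libraries that stand apart, Dnaja1, Bag1 and Ptges3 were called lower in H and Bag1 lower in HH, and Bag1 was also called lower in HH with nuclear-retained RNA as a covariate. The list holds the HSP90 genes Hsp90aa1 and Hsp90ab1, the HSP70 gene Hspa8, and Fkbp4, whose product FKBP52 takes the place of FKBP51 on the hormone-bound receptor. Its median log2 fold change was 0.16 in H, -0.54 in HC, -0.41 in HH and 0.55 in HHC. Medians over all tested genes were -0.15, 0.27, -0.23 and -0.06 in this order. Hsp90ab1 had means of 943 CPM in H, 771 in C, 727 in HH and 750.0 in CC_l. Hspa8 had means of 683 CPM in H, 540 in C, 811 in HH and 496 in CC_l. Bag1, which encodes an HSP70 cochaperone, stood at 155 CPM in HH and 695 CPM in CC_l on average (log2 fold change of -2.17, adjusted p = 0.257).

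Among the 11 coregulators of nuclear receptors, Nrip1 and Ppargc1a were called lower in H and none in the other comparisons. Nrip1 encodes RIP140, a corepressor of energy expenditure genes in fat, and Ppargc1a the coactivator PGC-1α of mitochondrial genes. Nrip1 stood at 244, 386 and 295 CPM in C and at 119, 77.1 and 157 CPM in H (log2 fold change of -1.39 ± 0.41, adjusted p = 0.0852). Ppargc1a stood at 18.4, 21.9 and 11.5 CPM in C and at 5.40, 3.21 and 3.26 CPM in H (log2 fold change of -2.12 ± 0.47, adjusted p = 0.0264). In each gene the H mice lay below the C mice without overlap. The corepressor gene Ncor1 had means of 237 CPM in H and 304 CPM in C, and the acetyltransferase gene Crebbp had means of 102 and 125 CPM, neither of them called. Without the 5 libraries that stand apart Ppargc1a was not called in H (log2 fold change of -1.43), and Nrip1 was not called without C replicate 2, H replicate 1 or H replicate 2 (-1.20, -1.40 and -1.16), nor with nuclear-retained RNA as a covariate (-1.01).

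Tsc22d3 (ENSMUSG00000031431, chromosome X: 140539528-140600659, minus strand) encodes GILZ, which carries anti-inflammatory actions of the hormone. It stood at 241, 293 and 643 CPM in C and at 399.9, 251 and 527 CPM in H, and the groups overlapped. In CC_s it stood at 769, 695 and 728 CPM and in HC at 640.0, 594 and 951 CPM, again overlapping. The log2 fold changes were 0.00 in H, with an interval from -0.89 to 0.89, and -0.01 in HC, with an interval from -0.89 to 0.88. The long arm groups did not overlap, with 549 and 708 CPM in CC_l above 271 and 319 CPM in HH, and 439 and 328 CPM in CCC below 633 and 508 CPM in HHC. The log2 fold change was -1.09 ± 0.52 in HH (adjusted p = 0.291) and 0.57 ± 0.52 in HHC (adjusted p = 0.725) by edgeR's test, and neither was called.

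Zbtb16 (ENSMUSG00000066687, chromosome 9: 48654297-48836222, minus strand) encodes the zinc finger factor PLZF and is strongly induced by glucocorticoids in many cells. It stood at 39.2 and 72.4 CPM in CC_l and at 10.9 and 10.2 CPM in HH. Both HH mice lay below both CC_l mice, and Zbtb16 was 5.31-fold lower in HH (log2 fold change of -2.41 ± 0.64, adjusted p = 0.0610 by edgeR's quasi-likelihood test). In the short arm the C mice held 31.3, 66.9 and 19.4 CPM and the H mice 44.9, 9.81 and 32.7 CPM. They overlapped, with a log2 fold change of -0.43 ± 0.50. Values after WL were 57.9, 46.3 and 46.1 CPM in HC against 45.0, 90.2 and 66.0 CPM in CC_s, and 41.1 and 44.9 CPM in HHC against 25.7 and 48.6 CPM in CCC, overlapping in each case. The call in HH was lost without CC_l replicate 2, HH replicate 1 or HH replicate 2 (log2 fold changes of -1.87, -2.44 and -2.34), where a single mouse stands for its group.

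Sgk1 (ENSMUSG00000019970, chromosome 10: 21882184-21999903, plus strand) encodes the serum- and glucocorticoid-regulated kinase, which acts downstream of PI3 kinase on ion transport and cell survival. Of the promoters of the 9 genes, 14 from 7 of the genes were found in RefSeq (GRCm38.p6), and 6 of these belong to Sgk1. In the 250 bases before each start, both strands were searched for the whole palindrome of the glucocorticoid response element (AGAACA, 3 bases of any kind and TGTTCT) and for its core (GNACA, 3 bases of any kind and TGTNC), which lies within it. The whole palindrome was found in 3 of 32851 promoters of all genes (0.00913%), 1 of them a promoter of Sgk1, and the core in 127 (0.387%), among them the same Sgk1 promoter and that of Mt1. The Sgk1 promoter is shown because it holds the whole palindrome, in capitals, 189 to 175 bases before the start (chr10:21993640-21993889, plus strand).
Sgk1: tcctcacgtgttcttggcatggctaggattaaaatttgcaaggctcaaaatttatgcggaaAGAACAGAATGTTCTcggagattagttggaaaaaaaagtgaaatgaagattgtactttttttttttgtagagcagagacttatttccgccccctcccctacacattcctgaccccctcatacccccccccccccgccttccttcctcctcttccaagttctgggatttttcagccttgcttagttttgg
A match of letters describes this window and is not a measured binding site, and the counts are not split by promoter.

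Sgk1 differed from its controls in the opposite direction to Fkbp5. It stood at 14.7 and 21.6 CPM in CC_l and at 110.5 and 102 CPM in HH, with no overlap. The gene was 5.85-fold higher in HH (log2 fold change of 2.55 ± 0.78, adjusted p = 0.1005 by edgeR's quasi-likelihood test). In C it stood at 28.8, 24.3 and 21.0 CPM and in H at 50.9, 93.0 and 109 CPM, again with every obese mouse above every lean mouse. The log2 fold change in H was 1.77 ± 0.62 with a nominal p of 0.0103 and an adjusted p of 0.149 in edgeR's test, just outside the rule, and Sgk1 was called in H under 5 of the 15 alternatives. After WL the mice of a group differed widely, with 80.0, 16.1 and 24.8 CPM in CC_s and 17.5, 29.9 and 113 CPM in HC. In CCC they held 34.2 and 54.7 CPM and in HHC 34.5 and 42.8 CPM. The highest value of HC came from replicate 3, which stands apart, and without it the log2 fold change turned from 0.41 to -0.77. The call in HH was lost without CC_l replicate 1, CC_l replicate 2 or HH replicate 1 (log2 fold changes of 2.30, 2.88 and 2.50), and without the 5 libraries that stand apart (2.38).

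Across the 20 libraries, log2 CPM of Fkbp5 followed that of Zbtb16 with a Pearson r of 0.77 (Spearman's rho of 0.65) and ran opposite to that of Sgk1 with r of -0.75 (rho of -0.75). With Tsc22d3 its r was 0.57 (rho of 0.54). These values describe libraries of 8 groups that share diet, age and arm, and no p is given for them.

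The effects before and after WL were compared directly as interactions, and 0 of the 9 genes differed at an adjusted p under 0.05 between the HHC and the HH effect, where 0.815% of all tested genes did. At a nominal p under 0.05 there were 4 of 9 beside 15.5% of all tested genes. Fkbp5 differed by 2.16 ± 0.54 (adjusted p = 0.0693), Zbtb16 by 2.62 ± 0.88 (adjusted p = 0.158), Sgk1 by -2.75 ± 1.06 (adjusted p = 0.219) and Tsc22d3 by 1.66 ± 0.73 (adjusted p = 0.286), as the HHC minus the HH log2 fold change in edgeR's test. Fkbp5 passed the adjusted threshold with DESeq2 (2.31), the likelihood ratio test (2.16), halved counts (2.36) and, as a covariate, nuclear-retained RNA (2.13). In the short arm, 0 of 9 genes differed between the HC and the H effect at a nominal p under 0.05, where 11.8% of all tested genes did. Between the arms, the HH minus the H log2 fold change of Zbtb16 was -1.98 (adjusted p = 0.848), the single gene of the 9 at a nominal p under 0.05 beside 5.79% of all genes. The HHC minus the HC log2 fold change of Mt2 was 2.51 (adjusted p = 0.397), again the single gene of the 9, beside 11.8%. It was 1.73 without CCC replicate 2, 4.25 without CCC replicate 1 and 1.49 without the 5 libraries that stand apart.

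**Figure D3:**
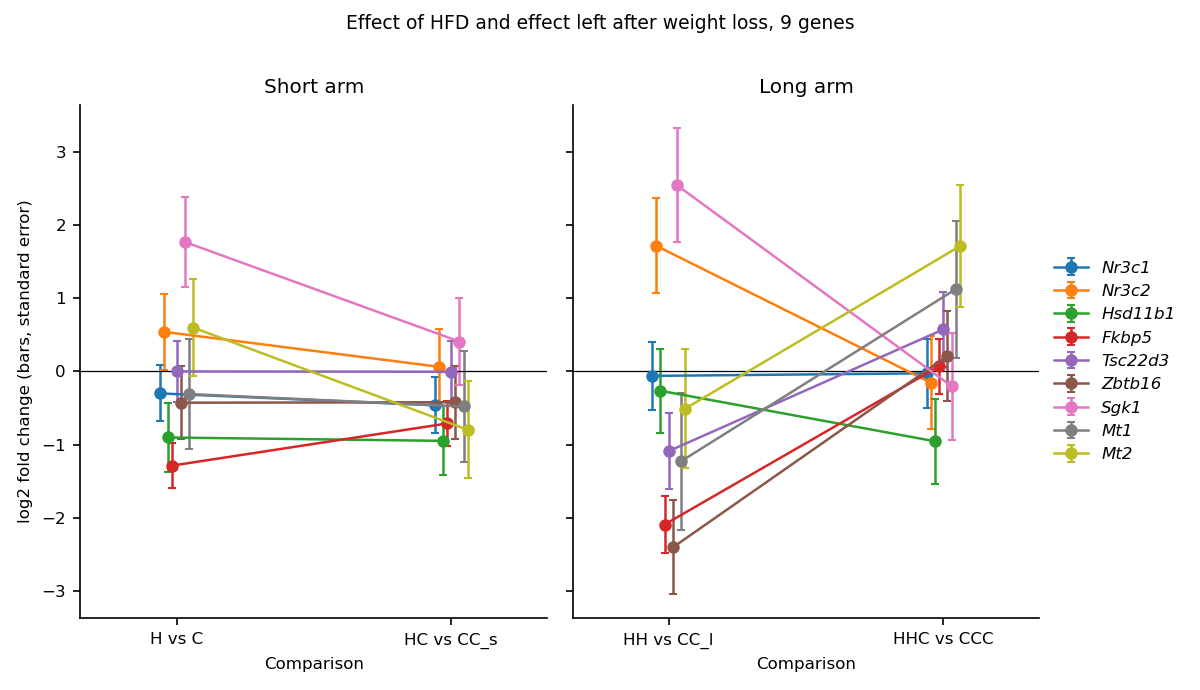
log2 fold change, with its standard error, of the 9 genes under HFD (left in each panel) and after WL (right), where each value is against the chow group of the same age, different mice stand on the left and the right, and lines join values of a gene. In the long arm Fkbp5 goes from -2.09 to 0.07, Zbtb16 from -2.41 to 0.21 and Sgk1 from 2.55 to -0.20.

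Other known targets of the receptor were a list of 17, all tested. In H, Angptl4 was called higher and Pik3r1 lower, and in HH, Dusp1 was called higher and Klf15 and Pik3r1 lower. After WL, Angptl4 was called higher in HC and Pdk4 in HHC. The median of the list was 0.05 in H, 0.34 in HC, -0.16 in HH and -0.01 in HHC. Medians over all tested genes were -0.15, 0.27, -0.23 and -0.06 in this order. Over all 5 lists of the pathway, 50 of 54 genes were tested, and the calls were 4 in H, 2 in HC, 4 in HH and 1 in HHC. The shares called over all tested genes were 6.49%, 1.74%, 6.79% and 3.12% in this order.

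Pik3r1 encodes the regulatory subunit of PI3 kinase, through which glucocorticoids dampen insulin signalling. It stood at 476, 1204 and 1091 CPM in C and at 174, 146 and 229 CPM in H (log2 fold change of -2.34 ± 0.46, adjusted p = 0.0138 in edgeR's test). In the older mice it stood at 437 and 578 CPM in CC_l and at 134 and 168 CPM in HH (log2 fold change of -1.75 ± 0.55, adjusted p = 0.109). Like Fkbp5, it was lower in every obese mouse than in every lean mouse of the same age. After WL it was not called, with means of 406 CPM in HC and 632 in CC_s and of 302 CPM in HHC and 575 in CCC.

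Angptl4 encodes a secreted inhibitor of lipoprotein lipase. It stood at 98.4, 120.4 and 213 CPM in C and at 585, 773 and 360.1 CPM in H (log2 fold change of 1.99 ± 0.43, adjusted p = 0.0240 in edgeR's test). In HC it stood at 201, 344 and 352 CPM, above the CC_s mice at 156, 103 and 111 CPM (log2 fold change of 1.28 ± 0.42, adjusted p = 0.536). In HH it stood at 592 and 641 CPM, above the CC_l mice at 204 and 330 CPM, and was not called. The Angptl4 call in HC was lost without CC_s replicate 2 or 3 or without HC replicate 2 or 3 (log2 fold changes of 1.14 to 1.21), and both calls without the 5 libraries that stand apart (1.08 in HC and 1.54 in H). Dusp1, which encodes a phosphatase that turns off MAP kinases, stood at 17.5 and 18.5 CPM in CC_l and at 163 and 91.0 CPM in HH (log2 fold change of 2.82 ± 0.59, adjusted p = 0.0264). In H it stood at 87.1, 95.5 and 95.3 CPM, above the C mice at 45.5, 27.9 and 49.0 CPM, and was not called. The HFD effect on Dusp1 was thus in the direction of Sgk1. Klf15, which encodes a factor of gluconeogenic and amino acid genes, stood at 64.4 and 79.5 CPM in CC_l and at 25.4 and 19.6 CPM in HH (log2 fold change of -1.67 ± 0.52, adjusted p = 0.105), in the direction of Fkbp5. The Klf15 and Pik3r1 calls in HH were lost without CC_l replicate 2, HH replicate 1 or HH replicate 2. In HC Klf15 stood at 59.6, 56.0 and 29.5 CPM, below the CC_s mice at 74.9, 116 and 108 CPM. It was not called there by edgeR but was called lower with DESeq2. Nfkbia, which encodes the inhibitor of NF-κB, had means of 213 CPM in H, 151 in C, 186 in HH and 119 in CC_l, with no call.

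Pdk4 encodes the kinase that shuts pyruvate out of the citric acid cycle, and it was the single pathway gene called in HHC. It stood at 299.7 and 56.8 CPM in HHC and at 14.2 and 14.1 CPM in CCC (log2 fold change of 3.66 ± 0.56, adjusted p = 0.0974 in edgeR's test). Both HHC mice lay above both CCC mice, with replicate 1 far above replicate 2, and leaving out each mouse in turn gave log2 fold changes of 2.00 to 4.40. The HC mice held 52.0, 59.4 and 58.1 CPM, above the CC_s mice at 21.4, 28.2 and 28.3 CPM. This difference was not called (log2 fold change of 1.12, adjusted p = 0.538). Under HFD Pdk4 was also higher without overlap. It stood at 16.6, 20.1 and 18.7 CPM in H and at 9.58, 8.83 and 14.3 CPM in C. In the long arm it stood at 30.2 and 43.7 CPM in HH and at 14.5 and 16.5 CPM in CC_l. It was called in neither H nor HH. Leaving the other groups out of the model gave a call in HH.

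**Figure D4:**
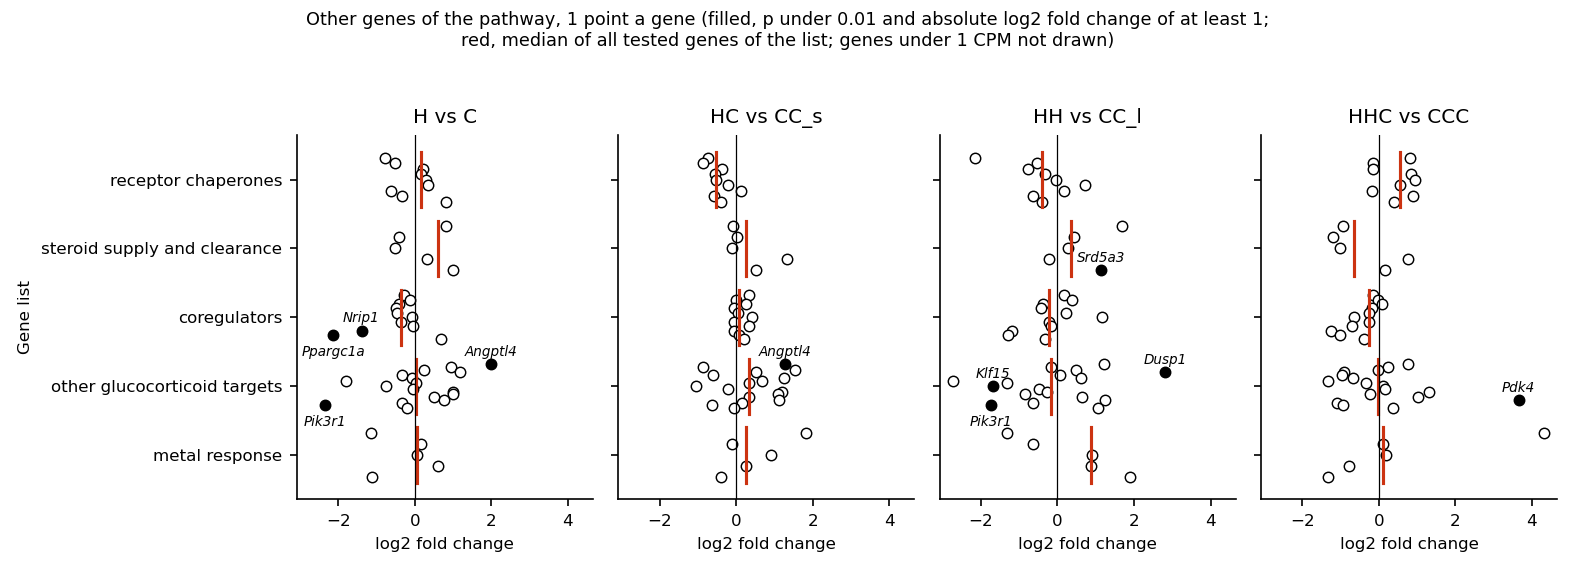
log2 fold change of the other pathway genes in the 4 comparisons, by list, with a point for each gene, filled and named where called, and a red line at the median of the tested genes. The 3 tested genes under 1 CPM (Cyp21a1, Hsd11b2 and Srd5a2) are not drawn.

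The metallothioneins Mt1 (ENSMUSG00000031765, chromosome 8: 94179082-94180327) and Mt2 (ENSMUSG00000031762, chromosome 8: 94172664-94173568) lie next to each other on the plus strand. They encode small zinc-binding proteins and are induced by metals, through MTF1 at metal response elements, and by glucocorticoids. The letters TGCGCNC and TGCACNC of these elements were searched for on both strands, and they occur in 12.5% and 10.4% of all promoters in the same window. The promoters of this pair are shown because the genes moved together between mice. Capitals mark the metal element letters and, in Mt1, the core of the glucocorticoid element at 94 to 82 bases before the start. The windows are chr8:94178839-94179088 for Mt1 and chr8:94172368-94172617 for Mt2, both on the plus strand.
Mt1: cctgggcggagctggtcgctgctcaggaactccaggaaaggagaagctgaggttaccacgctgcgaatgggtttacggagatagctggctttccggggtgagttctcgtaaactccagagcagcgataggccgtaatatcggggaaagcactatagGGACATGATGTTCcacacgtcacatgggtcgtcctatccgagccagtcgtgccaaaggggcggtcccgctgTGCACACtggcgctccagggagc
Mt2: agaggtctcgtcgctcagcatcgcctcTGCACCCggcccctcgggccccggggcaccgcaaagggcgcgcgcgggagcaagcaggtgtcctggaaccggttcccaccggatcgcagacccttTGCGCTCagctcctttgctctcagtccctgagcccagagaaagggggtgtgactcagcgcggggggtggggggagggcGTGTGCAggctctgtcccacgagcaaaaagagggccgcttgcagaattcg
The Mt1 window holds 1 metal element match and the Mt2 window 3, and the core palindrome was not found in the Mt2 window. Bases after the annotated start were not searched. The annotated exons of Mt1 merge into 1 stretch of 1246 bases over its whole span, on which its CPM per kb rests.

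Mt1 stood at 318, 301 and 1093 CPM in C and at 549, 336 and 497 CPM in H, and at 813, 1107 and 1048 CPM in CC_s and 1098, 813 and 217 CPM in HC. In the long arm Mt1 stood at 1031 and 1046 CPM in CC_l, 178 and 708 in HH, 979 and 129 in CCC, and 585 and 1832 in HHC. Both HH mice lay below both CC_l mice, and the other groups overlapped. Mt2 stood at 65.8, 103 and 149 CPM in C and 194, 91.5 and 196 in H, and at 421, 258 and 222 CPM in CC_s and 229, 228 and 60.7 in HC. The long arm values of Mt2 stood at 197 and 242 CPM in CC_l, 45.3 and 263 in HH, 140.4 and 24.6 in CCC, and 252 and 289 in HHC. The HHC mice lay above the CCC mice for Mt2.

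No difference in Mt1 or Mt2 was called. The log2 fold changes of Mt1 were -0.31 ± 0.75 in H, -0.48 ± 0.76 in HC, -1.23 ± 0.94 in HH and 1.12 ± 0.93 in HHC, whereas Mt2 gave 0.60 ± 0.66, -0.80 ± 0.66, -0.51 ± 0.81 and 1.71 ± 0.83 in the same order (SE, edgeR). The Mt2 value in HHC had an adjusted p of 0.476 and an interval from -0.04 to 3.46, and 1 library decided its size. Without CCC replicate 1 it was 3.45 and called, against the single CCC replicate 2, which stands apart and held 24.6 CPM. Without CCC replicate 2 it was 0.94, and without the 5 libraries that stand apart 1.02, neither of them called. The Mt1 value in HHC likewise reached from 0.076 without HHC replicate 2 to 3.22 without CCC replicate 1, and in HH from -2.52 without HH replicate 2 to -0.53 without HH replicate 1. In HHC it was 0.37 without the 5 libraries. Log2 CPM of Mt1 and Mt2 followed each other across the 20 libraries (Pearson r of 0.87, Spearman's rho of 0.72), although the genes share no 50-base stretch of exon sequence. Their range was wide, 14.2-fold for Mt1 and 17.1-fold for Mt2 from the lowest to the highest library, against 2.90-fold for Nr3c1.

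The 4 libraries with over 20000 CPM of nuclear-retained RNA were among the lowest for the metallothioneins. They held 129 to 318 CPM of Mt1 (median 259), against 178 to 1832 CPM in the other 16 libraries (median 896), and 24.6 to 103 CPM of Mt2, against 45.3 to 421 CPM. For Fkbp5 the same 4 libraries held 73.2 to 107 CPM, inside the range of 29.5 to 174 CPM of the others. With the sum of nuclear-retained RNA as a covariate, the log2 fold change of Mt1 was -1.41 in H, -0.76 in HC, -1.79 in HH and 0.52 in HHC, none of them called. That of Mt2 was -0.050, -0.98, -0.79 and 1.53, so that its value in H changed sign. Outside these libraries, HH replicate 1 was also low, with 178 CPM of Mt1 at 3693 CPM of nuclear-retained RNA. The exons of Mt2 overlap a gene on the opposite strand over 73.5% of their bases, and that gene was not analysed here.

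**Figure D5:**
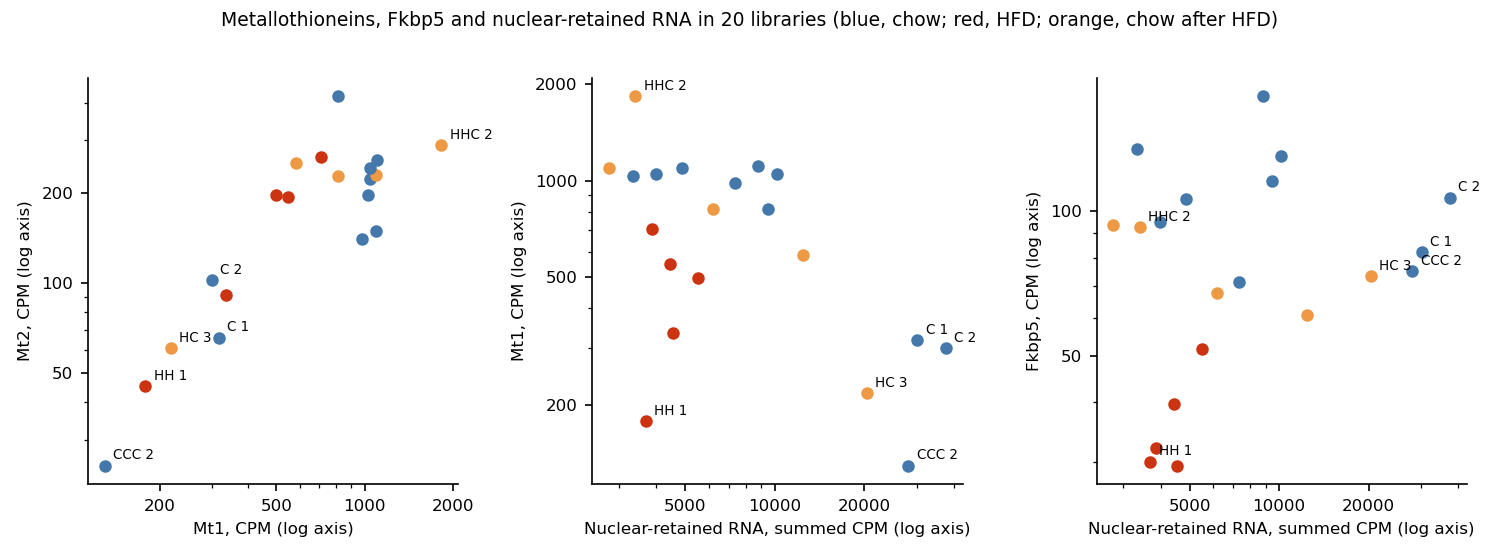
Mt2 against Mt1 (left), Mt1 against the summed nuclear-retained RNA (middle) and Fkbp5 against the same sum (right), in CPM on log axes, with a point for each of the 20 libraries. C replicates 1 and 2, HC replicate 3 and CCC replicate 2 lie at 20337 CPM or more of nuclear-retained RNA and at 318 CPM or less of Mt1.

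Of the metal response list, 5 of 6 genes were tested (Mt4 did not pass the filter) and 0 were called in any comparison. With nuclear-retained RNA as a covariate, Slc39a14 was called higher in H and in HH. Mt3 was called higher in HHC with DESeq2, without the filter on low counts and with the likelihood ratio test. The list median was 0.07 in H, 0.27 in HC, 0.87 in HH and 0.11 in HHC. Medians over all tested genes were -0.15, 0.27, -0.23 and -0.06 in this order. Mtf1, the metal-sensing factor, had means of 15.3 CPM in H, 13.6 in C, 13.1 in HH and 20.2 in CC_l. The zinc exporter gene Slc30a1 had means of 30.0 CPM in H, 28.7 in C, 29.3 in HH and 15.7 in CC_l. The zinc importer gene Slc39a8 had means of 12.7, 27.7, 20.04 and 5.37 CPM in the same groups. Its mean in C rested on replicate 1, which stands apart and held 69.3 CPM, against 9.73 and 4.12 CPM in the other C mice.

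Groups that did not overlap were also counted. In H 1 of the 9 genes lay higher (Sgk1) and 2 lower (Fkbp5 and Hsd11b1), beside 13.4% and 10.6% of all tested genes (23.9% in all). In HC 0 lay higher and 2 lower (Fkbp5 and Nr3c1), beside 8.01% and 5.82%. In HH 2 lay higher (Sgk1 and Nr3c2) and 4 lower (Fkbp5, Zbtb16, Tsc22d3 and Mt1), beside 26.3% and 28.9% (55.3% in all). In HHC 2 lay higher (Tsc22d3 and Mt2) and 0 lower, beside 8.49% and 20.3%.

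The make-up of the libraries moved with the diet. Calls of genes that were higher made up 3.57%, 1.57%, 4.92% and 0.447% of all tested genes in H, HC, HH and HHC. Of 5 lipid-associated macrophage markers, 4, 3, 2 and 0 were called higher in this order. Of 8 macrophage markers, 6 were called higher in H, 6 in HC, 8 in HH and 0 in HHC. Their sum was 201 to 352 CPM in C, 621 to 3863 in H, 184 to 238 in CC_s, 537 to 1573 in HC, 192 to 405 in CC_l, 3900.3 to 4795 in HH, 779.6 to 837 in CCC and 791 to 1480 in HHC. Of 6 progenitor markers, 3 were called higher in H, 1 in HC (Pdgfra) and 5 in HH. Of 5 endothelial markers, 3 were called higher in H and 5 in HH. In HHC 1 endothelial marker was called lower (Vwf), beside 2.67% of all tested genes. There 0 of the 5 lay above 0, with a median log2 fold change of -2.04 beside -0.06 over all tested genes. All macrophage, progenitor and endothelial markers had a mean above 0 CPM in every group. The adipocyte sum was 31150 to 57381 CPM in H, 20392 to 130641 in C, 25743 to 31857 in HH and 56943 to 62259 in CC_l, so that it was lower in both HH mice than in both CC_l mice. The part of other cell types in the values of Fkbp5, Zbtb16, Sgk1 and Dusp1 was not tested.

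Several targets of the receptor follow the time of day, as the hormone does, and genes of the clock moved in H and, as a sum, after WL. Of all tested genes, 2.92% were called lower in H, 0.172% in HC, 1.88% in HH and 2.67% in HHC. Of 8 clock output genes, 4 were called lower in H (Tef, Per2, Per3 and Nr1d2), 0 in HC, 0 in HH and 1 in HHC (Per2). Their sum was 473 to 872 CPM in C and 159 to 301 CPM in H without overlap, 282 to 416 CPM in CC_l and 320.3 to 395 CPM in HH. After WL it was lower without overlap in both arms. It was 374 to 475 CPM in HC and 588 to 629 CPM in CC_s, and 382 to 506 CPM in HHC and 582 to 1297 CPM in CCC. Of 7 immediate-early genes, which respond to handling of tissue, 0 were called in H, HH or HHC. In HC 1 was called higher (Atf3), beside 1.57% of all tested genes. In H and in HH 6 of 7 lay above 0, with medians of 1.05 and 0.97 beside -0.15 and -0.23 over all tested genes. Their sum was 80.8 to 127 CPM in C and 137 to 181 in H, without overlap. It was 48.1 to 119.7 CPM in CC_l and 156 to 169 in HH, again without overlap. After WL it overlapped, at 115 to 188 CPM in CC_s and 93.6 to 269 in HC. In CCC it was 132 to 173 CPM and in HHC 85.3 to 304, overlapping too. The part of sampling time or tissue handling was not tested.

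Over the 15670 genes with a mean of at least 1 CPM, the pattern most like that of Fkbp5 across the 20 libraries was found in Gpat4 (Pearson r of 0.90), Thap6 (0.89) and Cluap1 (0.89). For Tsc22d3 these were Col4a3bp (0.91), Nfix (0.90) and Cdkl2 (0.88), and for Hsd11b1 Slc5a6 (0.85), Bche (0.85) and Pde3b (0.83). For Mt1 they were Uqcr10 (0.97), Swi5 (0.96) and Tomm7 (0.96). These are the highest of many correlations over libraries that share diet, age and depth, and they are given as a description.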

How the data were processed

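Per the submitters' processing notes and the paper, the authors checked reads with FastQC 0.11.9, trimmed them with Trim Galore 0.6.6, aligned them to mm10 with HISAT2 2.2.1 and counted them on genes with featureCounts (Subread 2.0.1). They deposited whole-number counts per gene and mouse, without normalization. The gene annotation, strand setting and handling of read pairs are not given in the sources used here, and 74.4% to 89.2% of the nonzero counts per library were even numbers, so halved counts were tried as an alternative. Symbols and positions came from GENCODE vM21 (GRCm38) and promoters from RefSeq. Low counts were removed by filterByExpr, TMM factors were computed, and edgeR 4.0.16 (R 4.3.3) was run with all 20 libraries and 8 groups in 1 quasi-likelihood fit (common dispersion 0.462), and p-values were adjusted over 21464 genes by Benjamini-Hochberg. Standard errors come from the F statistic. Limits of 3 counts cover counting error only. Replicates are separate mice per the labels. Alternatives were DESeq2 1.42.0, RLE, no filter, the likelihood ratio test, fewer groups, a replicate block, halved counts and leaving out each mouse, and, after seeing the data, a covariate of nuclear-retained RNA and leaving out 5 libraries. The procedure was tested on simulated data. The genes and lists were chosen with earlier results of these data known. Named were the 9 genes, every pathway gene called in any comparison, and in each list the 3 of highest mean CPM. Figures were drawn with matplotlib 3.10.9.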

Additional observations from a re-analysis of the deposited data

Results flagged for a closer look

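The effect on Tsc22d3, which encodes the glucocorticoid-induced protein GILZ, pointed in opposite directions before and after WL in the long arm. Both HH mice (271 and 319 CPM) lay below both CC_l mice (549 and 708 CPM), and both HHC mice (633 and 508 CPM) lay above both CCC mice (439 and 328 CPM). Groups did not overlap in 55.3% of all tested genes in HH and in 28.8% in HHC. CC_l replicate 1 (549 CPM) and CCC replicate 2 (328 CPM) stand apart. The difference between the HHC and the HH log2 fold change was 1.66 ± 0.73 (adjusted p = 0.286 in edgeR's test of the interaction), so it did not pass the adjusted threshold. It ranged from 1.44 to 1.87 over the 17 alternatives run.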

How the results depend on the processing

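Fkbp5 was called by nominal p and fold change in H and in HH under every alternative run, and its adjusted p reached 0.227 and 0.293. The number of the 9 genes called in H was 2 (with Sgk1) without the filter, with the likelihood ratio test, with only the compared groups and with the covariate of nuclear-retained RNA, and 1 to 2 when each mouse was left out. When each mouse was left out, the number was 0 to 1 in HC, 1 to 2 in HH and 0 to 1 in HHC, where Mt2 was called (1) without the filter. Without the 5 libraries that stand apart it was 1 in H, 0 in HC, 3 in HH (Nr3c2 in place of Sgk1) and 0 in HHC, and the pathway counts were 6, 1, 6 and 1. This leaves 1 mouse each in C, CC_l and CCC, which is assumed to vary as the other groups do. Pathway genes called in H were 8 with the covariate and 3 to 8 when each mouse was left out, where the 8 arose without C replicate 3. In HC they were 4 with DESeq2, 5 without the filter, 1 with only the compared groups, 0 with the replicate block, 1 with halved counts, 1 without the 5 libraries and 0 to 2 when each mouse was left out. In HH they were 8 with only the compared groups, 11 with the covariate and 1 to 3 when each mouse was left out. In HHC they were 2 with DESeq2, 2 without the filter, 2 with the likelihood ratio test and 1 to 5 when each mouse was left out, where the 5 arose without CCC replicate 1. Genes of the 9 whose HHC and HH effects differ were 2 with DESeq2, 2 without the filter, and 1 each with the likelihood ratio test, halved counts and the covariate, and 1 gene (Mt2) differed between HHC and HC without the filter. The causes were not tested.

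The values that changed sign all belong to differences that were not called. With DESeq2 these were Tsc22d3 in HC (0.014) and Nr3c1 in HHC (0.11), and with RLE normalization the same (0.014 and 0.10). Without the filter they were Tsc22d3 in H (0.044) and HC (0.11) and Nr3c1 in HH (0.057) and HHC (0.030). With only the compared groups they were Nr3c1 in HH (0.033) and HHC (0.11), with the replicate block Tsc22d3 in H (0.047), and with halved counts Tsc22d3 in H (0.045), Nr3c2 in HC (-0.018) and HHC (0.011) and Nr3c1 in HHC (0.12). With the covariate they were, in H, Nr3c2 (-0.081), Zbtb16 (0.10) and Mt2 (-0.050), in HC, Nr3c2 (-0.11) and Tsc22d3 (0.016), and in HHC, Sgk1 (0.41). Without the 5 libraries they were, in H, Nr3c2 (-0.059) and Zbtb16 (0.69), in HC, Sgk1 (-0.85), and in HHC, Nr3c2 (0.25), Hsd11b1 (0.045) and Sgk1 (0.25). When each mouse was left out, the ranges that crossed 0 were, in H, Nr3c1 -0.46 to 0.16, Tsc22d3 -0.27 to 0.55, Zbtb16 -0.89 to 0.20 and Mt1 -0.62 to 0.57. In HC they were Nr3c2 -0.55 to 0.44, Tsc22d3 -0.25 to 0.12 and Sgk1 -0.77 to 1.39, and in HH, Nr3c1 -0.49 to 0.59 and Mt2 -2.26 to 0.28. In HHC they were Nr3c1 -0.18 to 0.11, Nr3c2 -0.44 to 0.17, Fkbp5 -0.27 to 0.33, Zbtb16 -0.18 to 0.74 and Sgk1 -0.50 to 0.17.

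Mice with the same replicate number did not deviate together (median correlation of -0.03 in the short arm over 18 pairs and -0.09 in the long arm over 12 pairs), so the number was not taken as a pairing. In the long arm, with 2 mice per group, deviations from the group mean mirror each other. The 12 pairs there are therefore not 12 separate values. The replicate block gave the same counts of the 9 genes (1, 0, 3 and 0) and moved the pathway counts from 4, 2, 4 and 1 to 5, 0, 3 and 1, with Srd5a3 gained in H and lost in HH. The lowest count in a library was 660 for Fkbp5 and 28 for Nr3c2. The common biological coefficient of variation was 0.680. Interval widths rest on groups of 2 or 3 mice and on the F statistic of each gene. They differed between genes, with standard errors in H of 0.31 for Fkbp5 and 0.75 for Mt1.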

Other observations

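The chow groups differed in some of the genes. Fkbp5 held 131 and 135 CPM in CC_l and 71.2 and 75.1 CPM in CCC. Tsc22d3 held 695 to 769 CPM in CC_s and 241, 293 and 643 CPM in C. The C values of 241 and 293 CPM came from replicates 1 and 2, which stand apart. So do the libraries with 135 CPM (CC_l) and 75.1 CPM (CCC) of Fkbp5. These groups differed in age and, per the paper, in the chow diet eaten last, and were not compared with a test. Mt3, the metallothionein of brain, was low throughout, with 1.34 and 1.18 CPM in HHC against 2 and 0 counts in CCC, and with 4.25, 8.73 and 0.269 CPM in the C mice.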
